A study of Rattus norvegicus with 6 samples.

Results

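The genes described here are the axon guidance families that were first found to steer growing axons: the ephrins and their Eph receptors, the Slits and their Robo receptors, and the netrins with the receptors Dcc and Unc5a to Unc5d. They were chosen by gene name from the deposited table (names that begin with Efna, Efnb, Epha, Ephb, Slit, Robo, Ntn or Unc5 followed by a digit or a letter a to d, without Slitrk, and Dcc), which gave 39 of the 32883 genes. Among these, Unc50 and Unc5cl were matched by name and are not netrin receptors of the Unc5a to Unc5d kind, so that 37 members were counted in the guidance families. RNA was sequenced from oligodendrocyte progenitor cells (OPCs), from which the myelinating oligodendrocytes develop, from the cerebral cortices of newborn (P0) Sprague Dawley rats. Mixed cultures were grown for 7 days in serum, and OPCs were shaken off and plated in serum-free medium with the B27 and N2 supplements. The study's methods name the cortices of 2 rats per culture and a range of ages that begins at P0. The cells received 5 µM ZJU-37, an inhibitor of the kinase RIPK1 that was derived from the older inhibitor Nec-1s, or an equal volume of its solvent DMSO. The labels give 36 h of treatment, whereas the study's methods give a shorter time for the sequenced RNA. Each group had 3 libraries, described as biological repeats in the methods and as plate wells in a legend, so that p-values measure the spread between these libraries, which may be technical.

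Ephrins are ligands that stay on the cell surface, ephrin-A by a lipid anchor and ephrin-B by a transmembrane segment, and they bind Eph receptor tyrosine kinases on a neighbouring cell. Signals run into both cells, forward through the receptor and in reverse through the ephrin. Slits are large secreted proteins that act through Robo receptors, mostly as repellents. Netrins are secreted proteins related to laminins that attract cells through Dcc and repel them through Unc5 receptors. In the oligodendrocyte lineage these cues are known from the migration of OPCs and from the outgrowth of their processes.

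Library totals lay between 13935865 and 24097927 counts, so that 3 counts stand for 0.124 to 0.219 CPM (counts scaled to library size with TMM factors, the scale of all levels here), which covers counting error only. Levels of single libraries are given in the order of replicates 1, 2 and 3, and means are given ± SD over the 3 libraries of a group. All 8 genes listed as OPC markers (Pdgfra, Cspg4, Olig1, Olig2, Sox10, Ptprz1, Nkx2-2 and Gpr17) were detected in the cultures, and 4 of these rose and 3 fell under ZJU-37 in the test used below. The summed level of 7 mature oligodendrocyte markers ran from 11086 to 22048 CPM in the DMSO libraries and from 4665 to 9759 CPM in the ZJU-37 libraries. Astrocyte (7 genes), microglia (11) and neuron (8) markers were present too, with summed levels of 988 to 1603, 2338 to 4063 and 204 to 341 CPM with DMSO and 856 to 1298, 1706 to 3544 and 172 to 252 CPM with ZJU-37. Endothelial markers summed to at most 18.7 CPM in any library with Cldn5 listed at 0 counts in all of them, and pericyte and fibroblast markers to between 27.2 and 106 CPM. The part of these markers in the results below was not tested. In RNA from whole cultures, fewer cells of a type and less RNA per cell cannot be told apart.

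Of the 39 members, 34 passed the filter on low counts. The receptors Ephb3 and Dcc rose and the receptor Ephb1 and the ligand Efna1 fell at an adjusted p-value under 0.05 in edgeR's quasi-likelihood test, which makes 4 of 34 members (11.8%). Over all 14670 genes tested, 15.0% were called, 9.43% as higher and 5.58% as lower, so that the members were not called more often than other genes. Libraries with the same replicate number deviated together from their group means, and when that number entered the fit as a block, 11 members were called, 4 higher and 7 lower. That is 32.4% of those tested, against 32.1% of all genes in the same fit (16.2% higher and 15.9% lower). The further members of the fit with the block were Unc5a and Ntn1, which were higher, and Unc5c, Slit1, Slit2, Robo2 and Efnb3, which were lower. In the same fit 5 of 7 mature oligodendrocyte, 4 of 7 astrocyte, 5 of 11 microglia and 4 of 8 neuron markers were lower and 0 markers of these lists were higher, as against 2, 1, 0 and 0 lower without the block. In 10 of the 34 members the ranges of both groups were separate, against 35.2% of all genes tested. The median log2 fold change of the members was -0.02, and that of all genes was -0.03. The 5 members under the filter were Epha1 with 5 to 19 counts per library, Robo3 with 1 to 7, Ntn5 with 0 to 5, Robo4 with 2 counts in DMSO replicate 3 and 0 elsewhere, and Unc5cl with 1 count in DMSO replicate 3 and 0 elsewhere. The annotated span of Epha1 overlaps that of Zyx on the opposite strand, which had 15246 counts in all, and the strand setting of the counting is not given in the sources used here, so that even the few counts of Epha1 are uncertain.

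**Figure D1:**
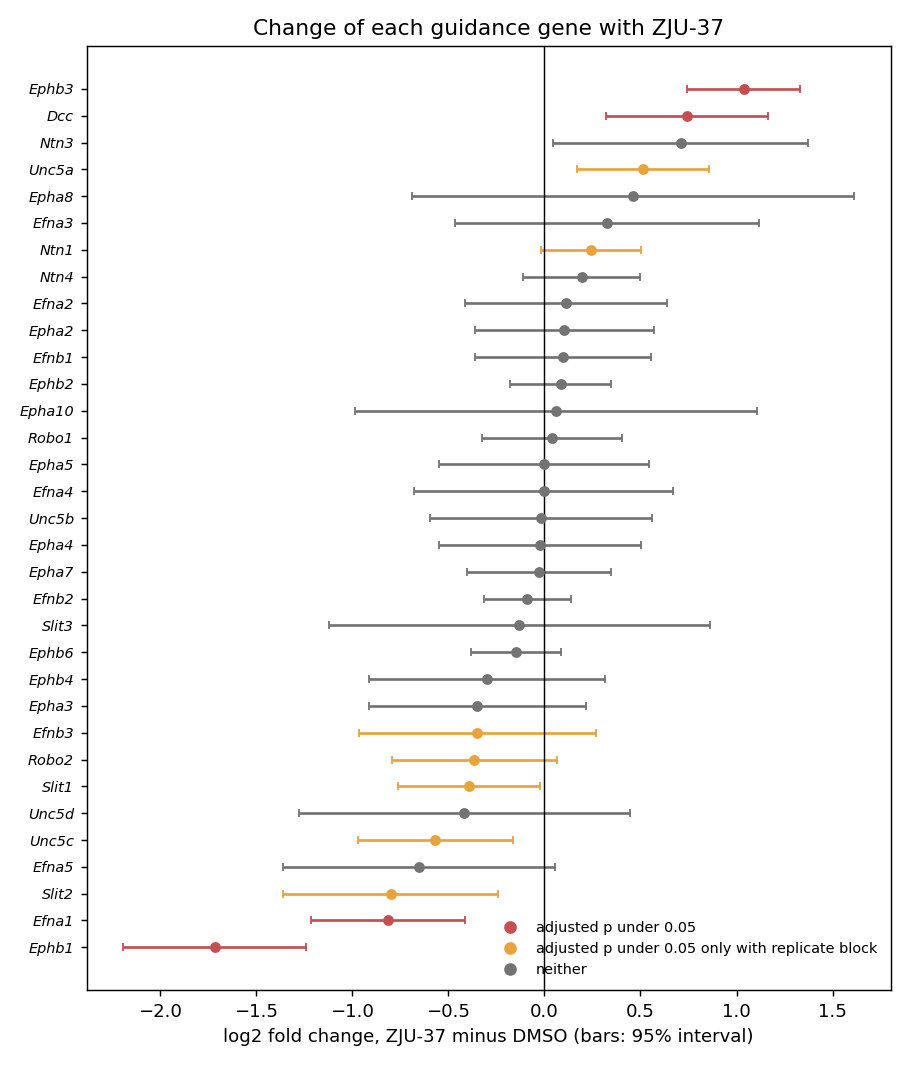
Log2 fold change (ZJU-37 minus DMSO, horizontal axis) of the 33 guidance genes that passed the filter, ordered by size, with 95% intervals from the edgeR fit without the block. Red marks genes called in that fit, orange those called only with the block and grey the others. Ephb1 at -1.71 and Ephb3 at 1.04 lie at the ends, and most other intervals cross 0.

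The regions around the start sites of the most strongly moved pair of receptors and of the called ligand are shown, Ephb3 as the gene that rose and Ephb1 and Efna1 as those that fell. The sequences come from RefSeq (assembly GRCr8) and run 5′ to 3′ on the strand of the gene, from 250 bases before to 50 bases after an annotated start. Capitals mark GC boxes (GGGCGG, or CCGCCC on the other strand) and CCAAT boxes (CCAAT, or ATTGG on the other strand), and where such letters overlap or touch they form a longer run of capitals. The Ephb1 window is chr8:111823710-111824009, the Ephb3 window is chr11:93363726-93364025 and the Efna1 window is chr2:176986772-176987071, all on the minus strand.
Ephb1: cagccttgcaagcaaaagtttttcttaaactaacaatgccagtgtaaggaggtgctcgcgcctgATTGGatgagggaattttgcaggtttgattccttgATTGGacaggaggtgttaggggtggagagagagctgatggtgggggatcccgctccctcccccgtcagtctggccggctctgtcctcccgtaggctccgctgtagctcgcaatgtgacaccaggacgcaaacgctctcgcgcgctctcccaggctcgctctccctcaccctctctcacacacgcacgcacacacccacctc
Ephb3: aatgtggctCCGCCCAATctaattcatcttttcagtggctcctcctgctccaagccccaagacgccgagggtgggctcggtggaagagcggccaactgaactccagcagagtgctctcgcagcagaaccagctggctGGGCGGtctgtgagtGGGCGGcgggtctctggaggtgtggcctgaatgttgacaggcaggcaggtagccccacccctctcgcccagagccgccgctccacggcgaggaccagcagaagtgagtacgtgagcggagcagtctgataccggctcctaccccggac
Efna1: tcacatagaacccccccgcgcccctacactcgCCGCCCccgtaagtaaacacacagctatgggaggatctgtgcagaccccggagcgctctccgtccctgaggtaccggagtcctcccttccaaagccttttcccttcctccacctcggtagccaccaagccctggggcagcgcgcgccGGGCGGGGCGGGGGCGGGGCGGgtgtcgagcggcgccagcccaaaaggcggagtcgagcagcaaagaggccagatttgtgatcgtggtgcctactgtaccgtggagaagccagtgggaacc
The Ephb1 window held 2 CCAAT boxes and 0 GC boxes, the Ephb3 window 1 CCAAT box and 3 GC boxes, and the Efna1 window 0 CCAAT boxes and 5 GC boxes. A GC box occurred in 33.1% and a CCAAT box in 37.5% of all 33469 windows of the table. The table held 33 windows for 32 of the 39 members (Robo1 has 2), and Efnb3, Epha4, Ntn1, Slit1, Slit2, Unc5c and Unc5d were not matched. Of the 33 windows, 18 held a GC box, 12 a CCAAT box and 0 the letters TATAAA (or TTTATA on the other strand), which 14.2% of all windows held. The letters CACGTG were in 3 member windows and 6.42% of all windows, and TGACTCA (or TGAGTCA) in 1 member window and 4.63% of all windows. Member windows had a median of 18 CG steps and 64% G and C, against 7 CG steps and 51.7% in all windows. These matches describe letters in a window and name no binding site.

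Among the ligands of the A class, Efna1 was the member that fell. Efna1 encodes ephrin-A1, a ligand of EphA receptors that is bound with high affinity by EphA2. Its level was 7.82, 6.38 and 6.26 CPM under DMSO and 3.95, 4.22 and 3.47 CPM under ZJU-37. All ZJU-37 libraries lay below all DMSO libraries. The means were 6.82 ± 0.864 and 3.88 ± 0.378 CPM, a log2 fold change of -0.81 (SE 0.17, adjusted p = 0.0208, edgeR), or 1.76-fold lower. The call rests on few counts per library (73 to 118) and was lost when any DMSO library or ZJU-37 replicate 3 was left out, with adjusted p-values up to 0.0853 and log2 fold changes between -0.87 and -0.71 in the edgeR fits without 1 library. The other A ligands did not pass the test with or without the block. Efna2 was the most abundant per length, at 8.36 ± 2.31 RPKM (CPM per kb of listed gene length) with DMSO and 9.02 ± 1.35 RPKM with ZJU-37. Its 95% interval for the log2 difference ran from -0.41 to 0.64. Efna3, Efna4 and Efna5 were between 1.08 and 3.03 CPM in their group means. The interval of Efna5, at a log2 fold change of -0.65, ran from -1.36 to 0.05, and that of Efna3, at 0.33, from -0.46 to 1.12. The listed gene lengths of Efna3 and Efna5 were only 690 and 666 bases, so that their levels per length rest on short gene models.

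The B ligands summed to 30.8 ± 4.11 RPKM with DMSO and 28.9 ± 2.55 RPKM with ZJU-37, above the A ligands at 20.0 ± 4.06 and 18.7 ± 1.14 RPKM, and none passed the test without the block. Efnb1, Efnb2 and Efnb3 encode the transmembrane ephrins that bind EphB receptors. Efnb2 was at 11.7 ± 1.02 RPKM with DMSO and 11.0 ± 0.936 RPKM with ZJU-37, and Efnb1 at 10.4 ± 2.41 and 11.1 ± 1.90 RPKM. The log2 difference of Efnb2 was -0.09 with a 95% interval from -0.31 to 0.14, and that of Efnb1 was 0.10 with an interval from -0.36 to 0.56. Efnb3 measured 34.0, 20.0 and 27.7 CPM under DMSO and 27.0, 15.7 and 21.4 CPM under ZJU-37. The groups overlapped, but within each replicate number the ZJU-37 library was the lower one, by 0.33, 0.35 and 0.38 on the log2 scale. The adjusted p-value of Efnb3 was 0.443 without the block and 0.00713 with it (log2 fold change -0.35 in both fits, edgeR).

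**Figure D2:**
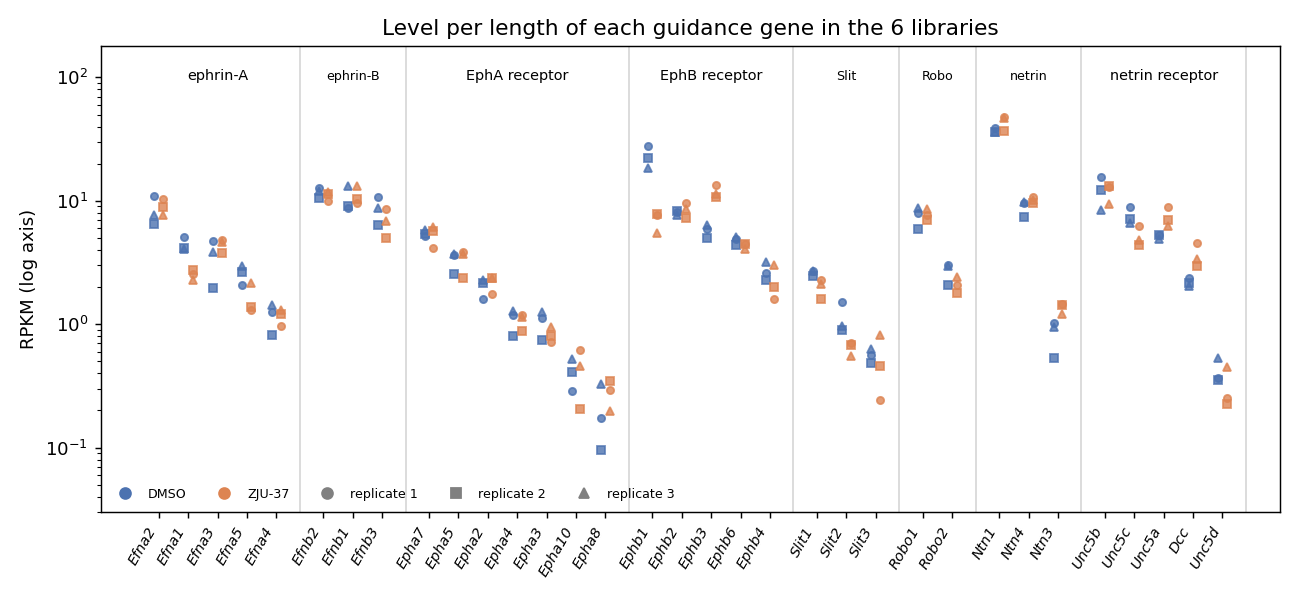
Level per length (RPKM, log axis) of the guidance genes that passed the filter, in each of the 6 libraries, with colour for the group and marker shape for the replicate number. Ntn1 was the most abundant member, and Ephb1 was the most abundant Eph receptor in the DMSO libraries only.

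The largest changes of the family were in the EphB receptors, where Ephb1 fell and Ephb3 rose. Both encode receptor tyrosine kinases that bind the B ligands. Ephb1 (listed on chromosome 8 from 110376954 to 110813000, minus strand, in a table that does not name its build) was at 128, 104 and 85.4 CPM under DMSO and 35.3, 36.3 and 25.2 CPM under ZJU-37. The lowest DMSO library was thus far above the highest ZJU-37 library. The means were 106 ± 21.5 and 32.3 ± 6.17 CPM, a log2 fold change of -1.71 (SE 0.20, adjusted p = 0.00237, and 6.89e-07 with the block, edgeR), or 3.28-fold lower. Ephb3 (chromosome 11 from 83527962 to 83546674, minus strand, in the same table) was at 23.7, 20.1 and 25.5 CPM under DMSO and 53.6, 42.8 and 45.9 CPM under ZJU-37. Again the groups did not overlap. The means of Ephb3 were 23.1 ± 2.74 and 47.4 ± 5.59 CPM, a log2 fold change of 1.04 (SE 0.12, adjusted p = 0.00221, and 9.66e-06 with the block, edgeR), or 2.05-fold higher. Within replicate numbers 1, 2 and 3 the log2 differences were -1.86, -1.51 and -1.76 for Ephb1 and 1.18, 1.09 and 0.85 for Ephb3. Both calls held in each of the 13 alternative fits, with adjusted p-values of at most 0.0135 for Ephb1 and 0.0111 for Ephb3. The genes listed as OPC markers moved in both directions beside these receptors. The list is not limited to the progenitor stage, and the paper counts cells of the whole oligodendrocyte lineage by Olig2. Pdgfra, Cspg4, Olig1 and Ptprz1 rose (log2 fold changes 1.10, 1.04, 0.64 and 0.54). Sox10, Nkx2-2 and Gpr17 fell (-0.61, -1.74 and -3.43), and Olig2 was at -0.07 and did not pass. Of the 7 mature oligodendrocyte markers, Myrf and Cnp fell (-1.69 and -1.36), while Mbp, Mag, Mobp and Mog did not pass, with log2 fold changes from -1.03 for Mbp to 0.07 for Mog. The part of cell makeup in the receptor changes was not tested.

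The other EphB receptors did not pass the test, and the shares of the class differed between the groups through Ephb1 and Ephb3. Ephb2, at 8.01 ± 0.314 RPKM with DMSO and 8.49 ± 1.21 RPKM with ZJU-37, had a log2 difference of 0.08 with a 95% interval from -0.18 to 0.35. Ephb4, best known from veins, had an interval from -0.91 to 0.32, and Ephb6, a member without kinase activity, one from -0.38 to 0.09. Of the summed EphB level per length, Ephb1 held 56.2%, 53.0% and 45.3% under DMSO and 20.8%, 24.4% and 16.7% under ZJU-37. The share of Ephb3 ran from 11.9% to 15.6% with DMSO and from 33.2% to 36.4% with ZJU-37. The ratio of Ephb3 to Ephb1 per length was 0.214, 0.224 and 0.344 in the DMSO libraries and 1.75, 1.36 and 2.10 in the ZJU-37 libraries, so that Ephb1 exceeded Ephb3 in each DMSO library and Ephb3 exceeded Ephb1 in each ZJU-37 library. Summed over the 5 receptors, the class was at 44.1 ± 4.55 RPKM with DMSO and 33.8 ± 2.51 RPKM with ZJU-37. These shares are descriptions of the same counts and carry no test of their own.

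**Figure D3:**
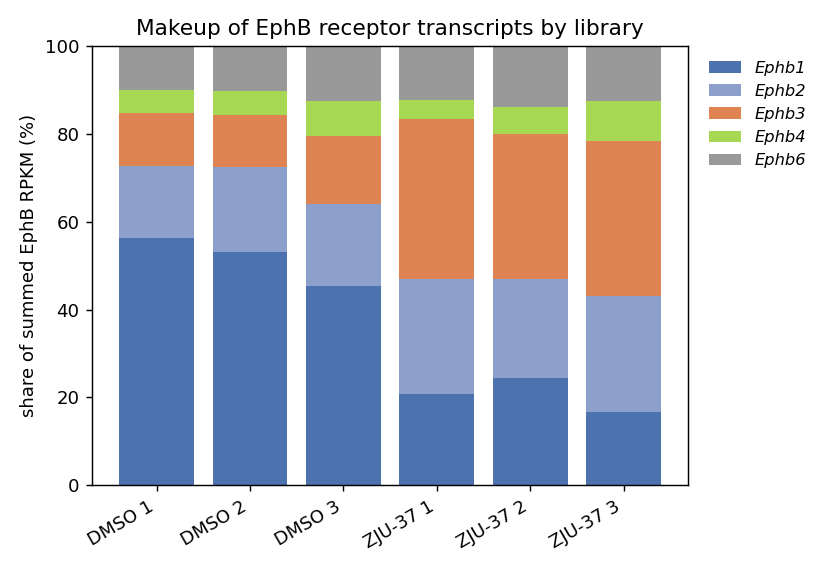
Share of each EphB receptor (percent, vertical axis) in the summed EphB RPKM of each library. Ephb1 makes up between 45.3% and 56.2% in the DMSO libraries and between 16.7% and 24.4% in the ZJU-37 libraries, and Ephb3 takes the largest share in each ZJU-37 library.

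The EphA receptors did not pass the test, with or without the block. EphA receptors bind mainly the A ligands, and of the 8 that were matched by name in the deposited table, 7 passed the filter. At an unadjusted p-value all 7 were also above 0.05, and the 3 ZJU-37 libraries overlapped the 3 DMSO libraries in each. Epha7 was the most abundant per length, at 5.46 ± 0.351 RPKM with DMSO and 5.35 ± 1.04 RPKM with ZJU-37, followed by Epha5 at 3.31 ± 0.653 and 3.30 ± 0.812 RPKM. The log2 difference of Epha7 was -0.03 with a 95% interval from -0.40 to 0.35, and that of Epha5 was 0.00 with one from -0.55 to 0.54. Epha2, Epha3 and Epha4 had group means between 5.05 and 8.46 CPM, with log2 differences of 0.10, -0.35 and -0.02. Epha8 and Epha10 were low, at group means between 0.583 and 1.31 CPM, and their intervals, from -0.69 to 1.61 and from -0.99 to 1.11, include changes in either direction. The summed EphA level per length was 13.6 ± 1.60 RPKM with DMSO and 13.6 ± 1.45 RPKM with ZJU-37, below the EphB sum in every library.

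The Slits, all of low level, had lower means with ZJU-37, and Slit1 and Slit2 fell in the fit with the block. Slit2 was at 11.5, 6.89 and 7.38 CPM under DMSO and 5.35, 5.19 and 4.26 CPM under ZJU-37. The groups did not overlap, and DMSO replicate 1 was the highest library. Its log2 fold change was -0.80 (SE 0.24), with an adjusted p-value of 0.0696 without the block and 0.00679 with it (edgeR). Slit1 was at 13.4, 12.2 and 13.4 CPM under DMSO and 11.2, 7.90 and 10.5 CPM under ZJU-37. These groups did not overlap either, and the log2 fold change was -0.39 (SE 0.15), with adjusted p-values of 0.151 without and 0.0253 with the block (edgeR). Slit3, at 3.20 ± 0.421 and 2.90 ± 1.65 CPM, varied more within the ZJU-37 group than between the groups. Per length, Slit1 held the largest share of the Slit sum in each library, between 56.7% and 70.7%.

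Of the Slit receptors, Robo1 and Robo2 carried nearly the whole signal of the class. Robo1 was at 7.56 ± 1.44 RPKM with DMSO and 7.78 ± 0.782 RPKM with ZJU-37, a log2 difference of 0.04 with a 95% interval from -0.32 to 0.40. Robo2 measured 31.3, 21.4 and 30.8 CPM under DMSO and 21.4, 18.4 and 25.0 CPM under ZJU-37. The groups met near 21.4 CPM, while within each replicate number the ZJU-37 library was lower, by 0.55, 0.22 and 0.30 on the log2 scale. The log2 fold change of Robo2 was -0.36 in both fits, with adjusted p-values of 0.247 without and 0.0134 with the block (edgeR). Robo2 made up 25.4% to 27.4% of the Robo sum per length in the DMSO libraries and 20.1% to 21.9% in the ZJU-37 libraries. Robo3, known from commissural neurons, and Robo4, known from endothelium, were at or near the limit of detection in every library.

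**Figure D4:**
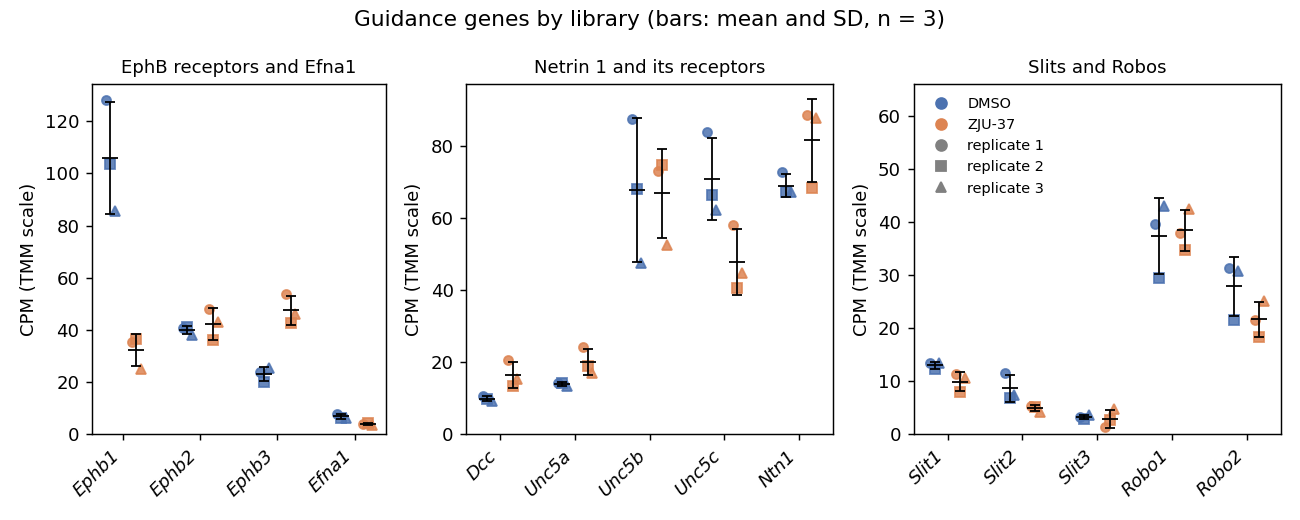
CPM of selected guidance genes in each library (points, marker shape for the replicate number), with mean and SD of the 3 libraries of a group as bars. Ephb1 sits lower and Ephb3 higher with ZJU-37, Dcc and Unc5a lie above and Unc5c and Slit2 below their DMSO libraries, and Unc5b and Robo1 overlap.

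Netrin transcripts were dominated by Ntn1, whose protein is the best studied netrin of the nervous system. Ntn1 was at 72.8, 67.1 and 67.2 CPM under DMSO and 88.7, 68.3 and 87.8 CPM under ZJU-37. ZJU-37 replicate 2 fell inside the range of the DMSO libraries. The log2 fold change was 0.24 (SE 0.11), with an adjusted p-value of 0.207 without the block and 0.0379 with it (edgeR), and without ZJU-37 replicate 2 it was 0.38 (adjusted p = 0.0175, edgeR, no block). Leaving out any other library gave no call of Ntn1, with adjusted p-values up to 0.393 (edgeR, no block). Per length Ntn1 held between 76.9% and 81.9% of the netrin sum. Ntn4, which is found in basement membranes, was at 8.94 ± 1.36 and 10.2 ± 0.556 RPKM, with a log2 difference of 0.19 and a 95% interval from -0.11 to 0.50. Ntn3 did not overlap between the groups, with 23 to 43 counts in the DMSO and 65 to 71 counts in the ZJU-37 libraries, but its adjusted p-values were 0.148 without and 0.0582 with the block (log2 fold change 0.71, edgeR).

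Among the netrin receptors, Dcc rose, and Unc5a and Unc5c changed in opposite directions in the fit with the block. Dcc encodes the receptor through which netrin 1 attracts axons, and the authors' table places it at 66523120 to 67224566 of chromosome 18 (minus strand). Its level was 10.7, 9.72 and 9.18 CPM under DMSO and 20.6, 13.4 and 15.4 CPM under ZJU-37. Each ZJU-37 library exceeded each DMSO library. The means were 9.86 ± 0.750 and 16.5 ± 3.71 CPM, a log2 fold change of 0.74 (SE 0.18, adjusted p = 0.0346, and 0.00145 with the block, edgeR), or 1.67-fold higher. The call of Dcc was lost when any 1 DMSO library or ZJU-37 replicate 3 was left out, with adjusted p-values up to 0.113 and log2 fold changes from 0.57 to 0.90 in the fits that leave out 1 library. Unc5a and Unc5c encode receptors of the repellent kind. Unc5a was at 14.3, 14.3 and 13.3 CPM with DMSO and at 24.1, 19.0 and 16.9 CPM with ZJU-37. Its log2 fold change was 0.51 (SE 0.14), with adjusted p-values of 0.0603 without and 0.00698 with the block (edgeR), and 0.0490 without the block when ZJU-37 replicate 3 was left out. The other fits without 1 library did not call Unc5a, with adjusted p-values up to 0.168 (edgeR, no block). Unc5c was at 83.9, 66.4 and 62.2 CPM with DMSO and at 58.1, 40.6 and 44.7 CPM with ZJU-37. The groups of both genes were apart, and Unc5c had a log2 fold change of -0.57 (SE 0.17) with adjusted p-values of 0.0732 without and 1.45e-04 with the block (edgeR), and 0.0222 without the block when ZJU-37 replicate 1 was left out. Unc5c was not called in the other fits without 1 library, with adjusted p-values up to 0.217 (edgeR, no block).

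Unc5b, which encodes another receptor of the repellent kind, had the highest level per length of the netrin receptors in the group means, and its groups overlapped. It stood at 12.1 ± 3.56 RPKM with DMSO and 11.9 ± 2.20 RPKM with ZJU-37, with a log2 difference of -0.02 and a 95% interval from -0.60 to 0.56. Unc5d was low, at 1.25 ± 0.294 and 0.933 ± 0.375 CPM. Per length, the ratio of Dcc to Unc5c was 0.262, 0.301 and 0.304 under DMSO and 0.730, 0.682 and 0.708 under ZJU-37. The ratio of Unc5a to Unc5c was 0.592, 0.748 and 0.742 in the DMSO libraries and 1.44, 1.62 and 1.31 in the ZJU-37 libraries. The summed level of the 5 receptors, 27.4 ± 4.99 RPKM with DMSO and 28.4 ± 4.38 RPKM with ZJU-37, overlapped between the groups.

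Beyond the ligands and receptors, a list of 48 genes that act with them (such as adaptors, kinases and binding partners) was examined, and all 48 passed the filter. At an adjusted p-value under 0.05, 7 were higher and 4 lower with ZJU-37 (22.9%, against 15.0% of all genes tested), and with the block 10 were higher and 10 lower (41.7%, against 32.1%). The median log2 fold change of the list was 0.03, against -0.03 for all genes. The kinase genes Src and Fyn, whose products act below Eph receptors and Dcc, moved in opposite directions. Src rose from 173 ± 6.00 to 328 ± 11.4 CPM, a log2 fold change of 0.92 (adjusted p = 3.61e-04, edgeR). Fyn fell from 1026 ± 99.4 to 498 ± 42.2 CPM, a log2 fold change of -1.04 (adjusted p = 0.00102, edgeR). Among the adaptors, Nck2, which links activated receptors to the actin cytoskeleton, rose from 29.8 ± 4.81 to 49.4 ± 3.89 CPM (log2 fold change 0.73, adjusted p = 0.0118, edgeR), whereas its relative Nck1 was at 20.2 and 20.6 CPM in the group means. Neo1, which encodes neogenin, a receptor related to Dcc, fell from 219 ± 41.4 to 128 ± 13.5 CPM (log2 fold change -0.77, adjusted p = 0.0156, edgeR), opposite to Dcc. Flrt1, a member of a family of cell surface proteins that bind Unc5 receptors, fell from 18.6 ± 3.47 to 7.27 ± 1.46 CPM (log2 fold change -1.36, adjusted p = 0.00492, edgeR). Its relative Flrt3 had a log2 fold change of 0.70 (adjusted p = 0.0727 without and 0.00158 with the block, edgeR). Flrt2, of the same family, had a log2 fold change of 0.07 (adjusted p = 0.855, edgeR). The focal adhesion kinase gene Ptk2 and the exchange factor gene Vav3 rose, with log2 fold changes of 0.27 and 0.52, and Chn2, which encodes a Rac inactivating protein, fell with a log2 fold change of -1.37 (adjusted p = 0.0185, 0.0273 and 0.0367, edgeR). The folds of Neo1, Ptk2, Vav3 and Chn2 kept their direction when 1 library was left out, with log2 fold changes from -0.87 to -0.61, 0.27 to 0.32, 0.43 to 0.61 and -1.59 to -1.09, but their calls did not always hold. Neo1 was not called without ZJU-37 replicate 3 (adjusted p = 0.0548, edgeR), and Ptk2 was not called without any 1 of the DMSO libraries (up to 0.0713). Vav3 lost its call without DMSO replicate 1 or 2 or ZJU-37 replicate 2 or 3 (up to 0.106), and Chn2 lost it without any 1 library other than DMSO replicate 3 (up to 0.101).

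Unc50, which encodes a protein of the Golgi and was taken up by its name alone, was at 37.1 ± 2.58 and 33.8 ± 0.621 CPM, with a log2 difference of -0.13 and an adjusted p-value of 0.301 (edgeR).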

How the data were processed

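Poly-A RNA was sequenced as paired-end reads in 3 DMSO and 3 ZJU-37 libraries. The authors deposited 1 table with raw read counts per gene made with featureCounts. The submitters' processing notes also name HISAT2 2.0.5 and StringTie 1.3.3b, and the genome build is not given in the sources used here. The FPKM values made by the authors and their own DESeq2 comparison (fold changes and p-values) were not used. Other than a length in bases, listed per gene in the deposited table, no column beside the counts entered a result.

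Genes with low counts were removed (filterByExpr, 14670 kept), and the rest were scaled by TMM and tested two-sided in R 4.3.3 by the quasi-likelihood functions glmQLFit (robust) and glmQLFTest of edgeR 4.0.16, with Benjamini-Hochberg adjustment over all tested genes. A change was called at an adjusted p-value under 0.05. SEs and 95% intervals come from the fit. CPM are on the TMM scale, and RPKM are CPM per kb of the listed length. The script was tested on simulated data. The deviations from the group mean of DMSO and ZJU-37 libraries that share a number had r = 0.39, 0.31 and 0.33 (others at most -0.01), across genes, which are not independent replicates, and the numbers come from the sample labels. Deviations within a group cancel out, so positive r at shared numbers makes the others negative on balance. The others are thus no separate evidence of pairing. Because of the positive r at shared numbers, the replicate number was also fitted as a block. With 3 against 3 libraries an exact permutation test cannot give p under 0.1. Library pairs of a group differed by at least 11.8 chi-square units per degree of freedom, so that none was counted as a duplicate.

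Alternatives were RLE and library-size normalization, no filter or at least 10 counts in every library, DESeq2 1.42.0, limma-voom (limma 3.58.1), the block and leaving out each library. The members and gene lists were chosen with earlier results of these data known. Full statistics go to members called in either fit and to the most abundant member of each class, and the 8 list genes with the smallest adjusted p-values are named. Nck1, Flrt2, Flrt3 and the cell type markers named were added after their values had been seen. Promoter windows come from RefSeq and the assembly GRCr8, matched by symbol.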

Additional observations from a re-analysis of the deposited data

How the results depend on the processing

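The direction and call of Ephb1 and Ephb3 held under all 13 alternatives, with log2 fold changes from -1.85 to -1.53 and from 0.94 to 1.14. The 4 called members became 11 with the replicate block and 7 with DESeq2, and between 2 and 5 when 1 library was left out (2, Ephb1 and Ephb3, without any 1 DMSO library). The 2201 genes called became 4705 with the block and between 1306 (without DMSO replicate 2, with 1351 without ZJU-37 replicate 3) and 1927 when 1 library was left out. DESeq2 called 2603 of 21314 genes with at least 1 count, a base that includes genes removed by its own filter, and 7 of 34 members. The 11 called genes of the signalling list became 20 with the block and between 5 and 10 when 1 library was left out (5 without DMSO replicate 1 or 2 or ZJU-37 replicate 3, and 7 without DMSO replicate 3). Besides the fits described with each gene, DESeq2 also called Slit2 (adjusted p = 0.0180), Unc5a (0.0317) and Unc5c (0.0194). Without a low-count filter the adjusted p-value of Chn2 was 0.109. Of 441 comparisons of a member with an alternative, 386 kept direction and side of the threshold, 8 lost the call, 13 gained one and 34 changed sign, the last in 11 members without a call in any fit.

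When 1 library was left out, the log2 fold changes ran from -0.045 to 0.35 for Efna2, -0.21 to 0.18 for Efna4, -0.029 to 0.31 for Efnb1, -0.27 to 0.42 for Epha10, -0.030 to 0.25 for Epha2, -0.20 to 0.13 for Epha4, -0.16 to 0.22 for Epha5, -0.12 to 0.14 for Epha7, -0.64 to 0.21 for Slit3, -0.11 to 0.16 for Robo1 and -0.22 to 0.21 for Unc5b. With library size only they were 0.021 (Efna4), 0.0096 (Epha4), 0.032 (Epha5) and 0.016 (Unc5b). Without a filter they were 0.0018 (Efna4) and 0.0050 (Epha5), with limma-voom 0.029 (Efna4), -0.058 (Epha10) and 0.018 (Unc5b), and with the block 0.014 (Efna4), -0.0095 (Epha10) and 0.0059 (Unc5b). The block changed no call of a member other than those given with each gene. The cause was not tested. Depth limits Epha8, Epha10, Unc5d, Efna4 and Efna5, with under 2 CPM in each group mean.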

Other observations

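Some members lie near each other in the authors' table, and in the fit without the block the pairs given here did not share a call. Efna1, Efna3 and Efna4 are listed on the same strand of chromosome 2, with 41.6 kb between the spans of Efna1 and Efna3 and 10.7 kb between those of Efna3 and Efna4. Of these, Efna1 fell, with a log2 fold change of -0.81, whereas Efna3 and Efna4 had log2 fold changes of 0.33 and 0.00 that did not pass the test. Robo1 and Robo2 are neighbours on opposite strands of chromosome 11 with 0 other protein-coding starts between them, and their log2 fold changes were 0.04 and -0.36, with Robo2 called only in the fit with the block. Ntn1 and Efnb3 lie farther apart, with 35 other protein-coding starts between them on chromosome 10. In the fits to all libraries both were called with the block, in opposite directions, and neither without it. Ntn1 was also called without the block when ZJU-37 replicate 2 was left out. Ephb2 and Epha8 lie 90.9 kb apart on chromosome 5, with 3 other protein-coding starts between them, with log2 fold changes of 0.08 and 0.46, neither of which passed. Whether neighbours differ from each other was not tested.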
